A study of Mus musculus with 24 samples.

Results

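The Dlk1-Dio3 domain is an imprinted region of mouse chromosome 12, and its genes Dlk1, Meg3 (also called Gtl2), Rian, Mirg, Rtl1 and Dio3 were followed here. Probes were taken by gene name, or by the current symbol of the accession the files list, which gave 10 of the 41174 probes on the array and covered 5 of the 6 genes. There were 2 probes for Dlk1, 4 for Meg3, 2 for Rian, 1 for Mirg and 1 for Dio3, and 0 probes were found for Rtl1. The series holds 24 single-colour microarrays of neonatal brain and liver from females, with 3 groups in each tissue and 4 arrays per group. The group G20 holds cumulus-cell clones at generation 20 of serial cloning, in which each generation supplies the donor nuclei of the next. The group CC holds cumulus-cell clones too (these somatic cells surround the oocyte), with no generation number in the labels. NC animals were controls made by intracytoplasmic sperm injection (ICSI), in which a sperm is injected into the oocyte, so the controls too came from manipulated oocytes. Mice of all 3 groups were (C57BL/6 x DBA2) x 129/Sv hybrids. The question behind the series is whether repeated recloning lets reprogramming errors accumulate.

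In an imprinted domain the 2 parental chromosomes are used unequally. At this locus Dlk1, Rtl1 and Dio3 are mainly expressed from the paternal chromosome and encode proteins, while Meg3, Rian and Mirg are expressed from the maternal chromosome as long noncoding RNAs that also carry small RNAs. A differentially methylated region between Dlk1 and Meg3 controls the choice. Loss of maternal Meg3 expression is a known fault of some reprogrammed mouse cell lines, and Dlk1 is a known marker of fetal hepatoblasts, the precursor cells of the liver.

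Positions of probes are on mm8, the build of the array files, and all lie on chromosome 12. Dlk1 probe 1 lies at chr12:109908025-109908084 and Dlk1 probe 2 at chr12:109908264-109908323. Meg3 probe 1 was placed at chr12:109997571-110006056, a stretch longer than a probe and therefore split over a gap, Meg3 probe 2 at chr12:110006769-110006828, Meg3 probe 3 at chr12:110009155-110009214 and Meg3 probe 4 at chr12:110019275-110019334. Rian probe 1 lies at chr12:110099890-110099949, Rian probe 2 at chr12:110108401-110108460, Mirg probe 1 at chr12:110189133-110189192 and Dio3 probe 1 at chr12:110728714-110728773. Numbering follows the chromosome. Exons and untranslated regions were not assigned, because no annotation of that build was used here.

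The promoters of Dlk1 and Meg3 are printed because probes of these 2 genes were called between G20 and NC livers. They are the 250 bases before a transcript start in RefSeq, build GRCm38.p6, plus strand, at chr12:109452573-109452822 for Dlk1 and chr12:109540746-109540995 for Meg3 (the first of its 2 entries). Capitals mark matches, on either strand, to TGACGTCA (the cyclic AMP response element), TATAAA (the TATA box) and CCAAT, where overlapping matches run together.
Dlk1: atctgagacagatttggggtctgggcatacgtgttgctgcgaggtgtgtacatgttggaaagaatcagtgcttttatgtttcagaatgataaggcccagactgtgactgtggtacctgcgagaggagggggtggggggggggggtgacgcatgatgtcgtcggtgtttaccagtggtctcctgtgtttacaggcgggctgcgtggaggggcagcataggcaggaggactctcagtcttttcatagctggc
Meg3: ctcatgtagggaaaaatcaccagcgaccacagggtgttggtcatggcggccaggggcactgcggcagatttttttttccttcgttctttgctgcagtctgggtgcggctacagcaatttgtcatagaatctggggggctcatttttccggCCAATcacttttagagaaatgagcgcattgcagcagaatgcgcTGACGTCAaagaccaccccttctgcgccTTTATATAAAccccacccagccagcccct

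The Meg3 stretch held 1 TGACGTCA beginning 57 bases before the start, 2 overlapping TATAAA matches, 1 on each strand, whose leftmost bases lie 29 and 25 bases before it, and 1 CCAAT beginning 100 bases before it. The Dlk1 stretch held none of the 3. Among 32851 RefSeq promoter stretches of the same length, 1.55% held TGACGTCA, 12.4% TATAAA and 33.8% CCAAT. The Meg3 stretch had 10 CpG and the Dlk1 stretch 8, against a median of 6 over all stretches. Methylation was not measured here.

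RefSeq places 58 miRNA hairpins between the ends of Dlk1 and Dio3, with 114 mature miRNAs, of which 106 are on the strand of Meg3. Within gene spans there were 3 mature miRNAs in Meg3, 6 in Rian and 19 in Mirg. The span of Rtl1 held 29, of which 25 lie on the strand of Meg3. These arrays carried no measure of mature miRNAs, so the host transcripts below stand only for themselves. An example from each span is printed with the seed, bases 2 to 8, in capitals.
mmu-miR-770-3p (in Meg3): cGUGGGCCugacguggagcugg
mmu-miR-127-3p (in the span of Rtl1): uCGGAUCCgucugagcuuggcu
mmu-miR-370-3p (in Rian): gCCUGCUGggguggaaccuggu
mmu-miR-410-3p (in Mirg): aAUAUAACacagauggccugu

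The 4 seeds differ from each other, and over the whole domain 113 mature names had 104 distinct seeds, with 9 seeds shared by a pair of names.

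Between 61.0% and 63.4% of probes were well above background on G20 liver arrays, 54.2% to 57% on CC and 58.2% to 60.1% on NC liver arrays. The ranges in brain were 68.6% to 71.1% in G20, 63.0% to 64.5% in CC and 68.7% to 70.8% in NC. Each group of a tissue filled 1 slide of its own, and slide effects cannot be told apart from group effects. G20 and NC arrays of a tissue were scanned in the same session, liver first and brain 49 days later, and CC arrays of both tissues in a session 221 days after the first. All G20 arrays carry the same source name, so only the number in the title marks them as separate samples, and p-values measure the spread between samples, which may be technical. Liver identity was clear from its markers (Alb, Afp, Apoa1, Ttr and Fgb, 5 of 5 well above background on every liver array), and the brain markers (Tubb3, Stmn2, Map2, Neurod1, Gfap and Olig2) were 6 of 6 on every G20 and NC brain array and 5 or 6 on the CC brain arrays.

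Levels below are log2 processed signal minus the array's own 75th percentile, so 0 is the 75th percentile of that array, and a level of one probe says nothing against the level of another. All 10 domain probes passed the filter on dim probes in both tissues, Rian probe 1 in liver through the G20 arrays alone. None of the 10 was missing, and none was saturated. In bulk tissue, fewer cells of a type and less RNA per cell cannot be told apart. A probe was called at a limma adjusted p (Benjamini-Hochberg over all probes kept in the tissue) under 0.05.

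In liver, Dlk1 and Meg3 were about 2-fold higher in G20 than in NC animals. Of the 10 domain probes 5 were called, all higher: Dlk1 probe 2 and the 4 Meg3 probes. The background was 6.47% of the 24079 probes tested, and 3.86% were called higher. The median difference over the 10 probes was 1.06 on the log2 scale, against 0.03 over all probes. It includes Rian probe 1, which entered only through the G20 livers. Rian, Mirg and Dio3 probes, and Dlk1 probe 1, did not pass the test.

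Dlk1 encodes a transmembrane protein related to the Notch ligands. Dlk1 probe 2 was at 6.56, 6.50, 6.52 and 6.78 in the 4 G20 livers, against 5.01, 5.20, 5.38 and 6.36 in the 4 NC livers. The groups did not overlap, and NC replicate 4 stood close under the G20 livers. The difference was 1.10 ± 0.27 (SE, n = 4 each; limma adjusted p = 0.0332), which is 2.15-fold. Dlk1 probe 1, from the same gene, was at 4.29, 4.27, 4.45 and 4.77 in G20 livers, against 2.86, 3.08, 3.28 and 4.24 in NC livers. These groups did not overlap either, and the difference of 1.08 ± 0.30 missed the threshold (limma adjusted p = 0.0504, n = 4 each).

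Meg3 is a long noncoding RNA expressed from the maternal chromosome. Meg3 probe 4 was at 6.57, 6.69, 6.60 and 6.84 in G20 livers, against 5.33, 5.36, 5.57 and 6.29 in NC livers. The difference was 1.04 ± 0.22, a 2.06-fold higher level in G20 livers (limma adjusted p = 0.0177, n = 4 each). Meg3 probe 3 was at -0.40, 0.06, 0.19 and 0.57 in G20 livers, against -1.18, -1.33, -1.89 and -0.89 in NC livers. Its difference was the largest among the 10 probes in this comparison, 1.43 ± 0.27 or 2.69-fold (limma adjusted p = 0.0119, n = 4 each). For all 4 Meg3 probes every G20 liver lay above every NC liver.

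Meg3 probe 1 was at 5.08, 5.02, 5.12 and 5.34 in G20 livers, against 3.84, 3.92, 4.10 and 4.81 in NC livers, a difference of 0.97 ± 0.21 (limma adjusted p = 0.0196, n = 4 each). Meg3 probe 2 was at -0.05, -0.48, -0.48 and -0.41 in G20 livers, against -1.18, -1.28, -1.18 and -0.96 in NC livers, a difference of 0.79 ± 0.14 (limma adjusted p = 0.00822, n = 4 each). Groups without overlap and with the G20 livers higher were seen for 6 of the 10 domain probes, the 4 of Meg3 and the 2 of Dlk1, and for 10.1% of all probes tested.

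Rian, the transcript that hosts many of the domain's box C/D small nucleolar RNAs, gave values in the same range but with more spread. Rian probe 2 was at 1.73, 2.37, 2.99 and 3.19 in G20 livers, against 1.31, 1.26, 0.70 and 2.55 in NC livers, and NC replicate 4 lay inside the G20 range. The difference of 1.11 ± 0.38 was not called (limma adjusted p = 0.106, n = 4 each). Rian probe 1 was well above background on 4 of 4 G20 livers and on 2 of 4 NC livers, with a difference of 1.12 ± 0.53 (limma adjusted p = 0.228, n = 4 each).

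Mirg, a host transcript of miRNAs, was at 0.08, 0.24, 0.51 and 0.64 in G20 livers, against -0.08, -0.72, -0.54 and 0.44 in NC livers. The groups overlapped, and the difference was 0.60 ± 0.28 (limma adjusted p = 0.222, n = 4 each). Dio3, the deiodinase that inactivates thyroid hormones, was at -2.57, -2.56, -1.86 and -1.57 in G20 livers, against -2.11, -2.39, -1.90 and -4.02 in NC livers. Its difference of 0.46 ± 0.41 was not called (limma adjusted p = 0.536, n = 4 each).

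**Figure D1:**
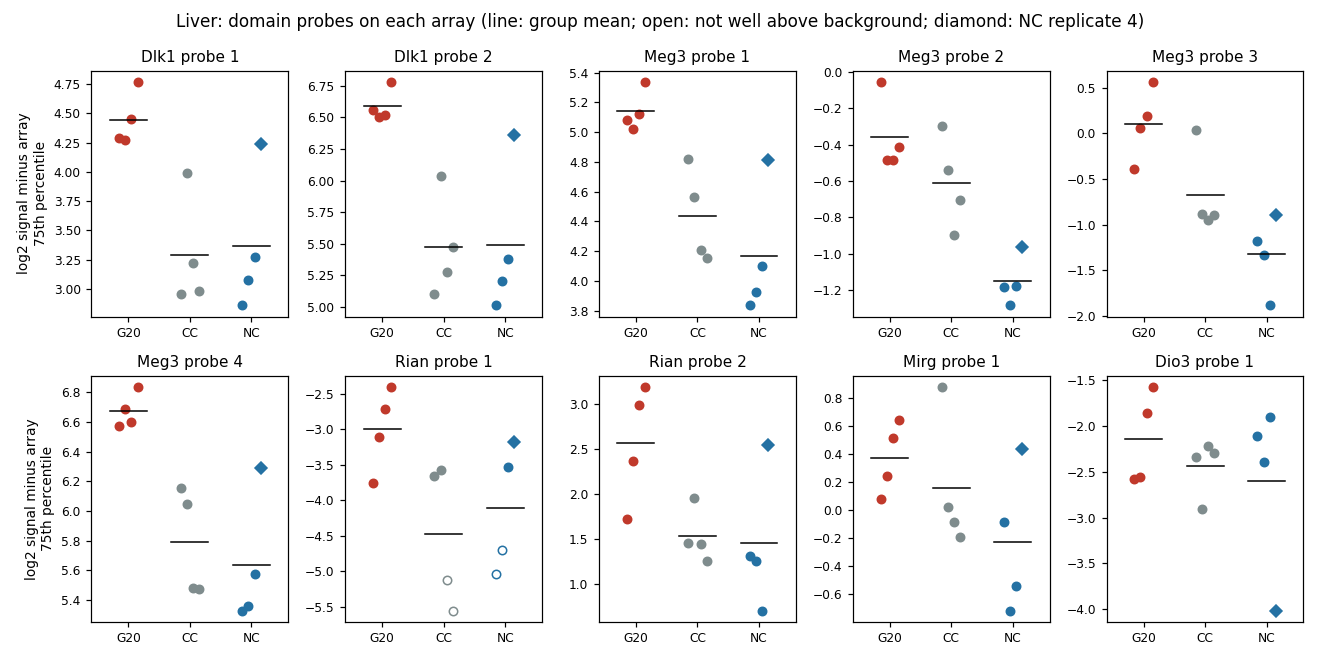
Levels of the 10 domain probes in liver, in log2 signal minus the array's 75th percentile, with a point per array, a line at each group mean, open points where the probe was not well above background and a diamond for NC replicate 4. G20 livers lie above all NC livers for the Dlk1 and Meg3 probes, and NC replicate 4 is the highest NC liver for every probe but that of Dio3, where it is the lowest at -4.02.

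NC replicate 4 stood apart from the other NC livers, nearer the G20 livers for Dlk1 probe 2 (6.36, others 5.01 to 5.38), Meg3 probe 4 (6.29, others 5.33 to 5.57) and Rian probe 2 (2.55, others 0.70 to 1.31). Without it 7 of the 10 probes were called, all higher in G20, and the share of all probes called in that fit is not given here. The differences were then 1.39 for Dlk1 probe 2 (limma adjusted p = 0.00361), 1.38 for Dlk1 probe 1 (0.00904), 1.26 for Meg3 probe 4 (0.00342) and 1.48 for Rian probe 2 (0.0245). Dio3 was then at -0.01 with limma adjusted p = 0.989. Other single arrays moved the count the other way: 2 probes, Meg3 probes 2 and 3, were called without G20 replicate 4, without NC replicate 1 or without NC replicate 2. The share of all probes called in those fits is not given here either. Dlk1 probe 2 was not called when any of the 4 G20 livers or NC replicate 1, 2 or 3 was left out, with limma adjusted p between 0.058 and 0.0926 and a difference that stayed between 0.94 and 1.13.

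The choice of scale moved several of these values. With normexp background correction the median of all probes moved to -0.21, and 1196 probes were called higher and 8096 lower in G20 than in NC livers, against 930 and 628. Scaling by the median gave 529 and 924, and Dlk1 probe 2 was not called there (1.03 ± 0.28, limma adjusted p = 0.0509) while the 4 Meg3 probes were. Under normexp 5 probes were called as well, those of Dlk1, Meg3 probes 1 and 4 and Rian probe 2, with larger differences (1.67 for Dlk1 probe 2, 1.51 and 1.57 for Meg3 probes 1 and 4), while Meg3 probe 3 at 0.50 (limma adjusted p = 0.109) and Meg3 probe 2 at 0.31 (limma adjusted p = 0.149) were not. Rian probe 1 at -0.94 and Dio3 at -0.74 took the other sign there, and neither was called.

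Markers of other cells the liver could hold were set beside this result, as the summed linear signal of each list relative to the array's 75th percentile, over the genes with a value on all 12 arrays of the tissue. Skeletal muscle markers summed to 1.57 to 7.52 in G20 livers and 1.69 to 6.93 in NC livers, where NC replicate 4 was the highest, with 3 to 5 of the 5 well above background in both groups. The 2 erythroid markers with complete values summed to 86.8 to 107.7 in G20 livers and 100.2 to 120.9 in NC livers. Stellate cell and fibroblast markers summed to 38.6 to 45.2 in G20 livers and 47.0 to 51.9 in NC livers. Of these 5 markers 1 was called, Lrat, the enzyme that esterifies retinol for storage in stellate cells, against 6.47% of all probes. Lrat was lower in G20 livers by -0.80 ± 0.19 (limma adjusted p = 0.0282, n = 4 each). Des, also in that list, went the other way, averaging -2.29 in G20 and -2.78 in NC livers. Of the adrenal markers, Cyp11a1 averaged -6.04 in G20 and -5.96 in NC livers and Cyp21a1 -5.71 in G20 and -5.92 in NC livers, near the lowest levels measured, and Hsd3b1 made up nearly all of that list's signal (5.51 in G20, 5.22 in NC livers), so its sum is not given. Endothelial sums (6.91 to 8.45 in G20, 6.69 to 7.87 in NC) and macrophage sums (26.9 to 33.9 in G20, 29.4 to 34.3 in NC) overlapped, with 5 of 5 markers of each well above background. The 3 liver markers with complete values (Afp, Apoa1 and Ttr) summed to 548.6 to 671.6 in G20 and 622.5 to 689.1 in NC livers. The part of these cells in the Dlk1 and Meg3 difference was not tested.

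In brain, no domain probe was called between G20 and NC animals, against a background of 1.39% of 27806 probes. At an unadjusted p under 0.05 there were 2 of the 10, both of Meg3, and the share of all probes at that threshold is not given here. The median difference over the 10 probes was 0.20, against 0.02 over all probes. Meg3 probe 4 was at 6.19, 6.27, 5.99 and 6.07 in G20 brains, against 5.97, 5.79, 5.91 and 5.89 in NC brains. Every G20 brain lay above every NC brain, by a small margin, and the difference was 0.24 ± 0.09 (limma adjusted p = 0.208, n = 4 each).

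Meg3 probe 2 was at 3.44, 4.14, 3.37 and 3.46 in G20 brains, against 2.98, 3.24, 3.36 and 3.14 in NC brains, with a difference of 0.42 ± 0.17 (limma adjusted p = 0.218, n = 4 each). Groups without overlap and with G20 brains higher were found for these 2 domain probes and for 6.26% of all probes. The other 8 differences lay between -0.30 for Rian probe 1 and 0.36 for Rian probe 2. Dlk1 probe 2 averaged 2.31 ± 0.22 in G20 brains and 2.24 ± 0.21 in NC brains (SD, n = 4 each), and Dio3 averaged -0.83 ± 0.13 in G20 and -0.66 ± 0.19 in NC brains. No leave-out of a single array led to a call. Marker sums without overlap were those of macrophage (1.67 to 1.96 in G20, 2.115 to 2.18 in NC brains) and skeletal muscle markers (0.51 to 0.63, 0.69 to 0.84). Brain marker sums parted narrowly (85.6 to 92.2 in G20, 92.3 to 94.9 in NC brains). The other marker sums overlapped, and the pituitary sum reached 13.7 in NC brain replicate 2. The part of these cells in the brain levels was not tested.

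**Figure D2:**
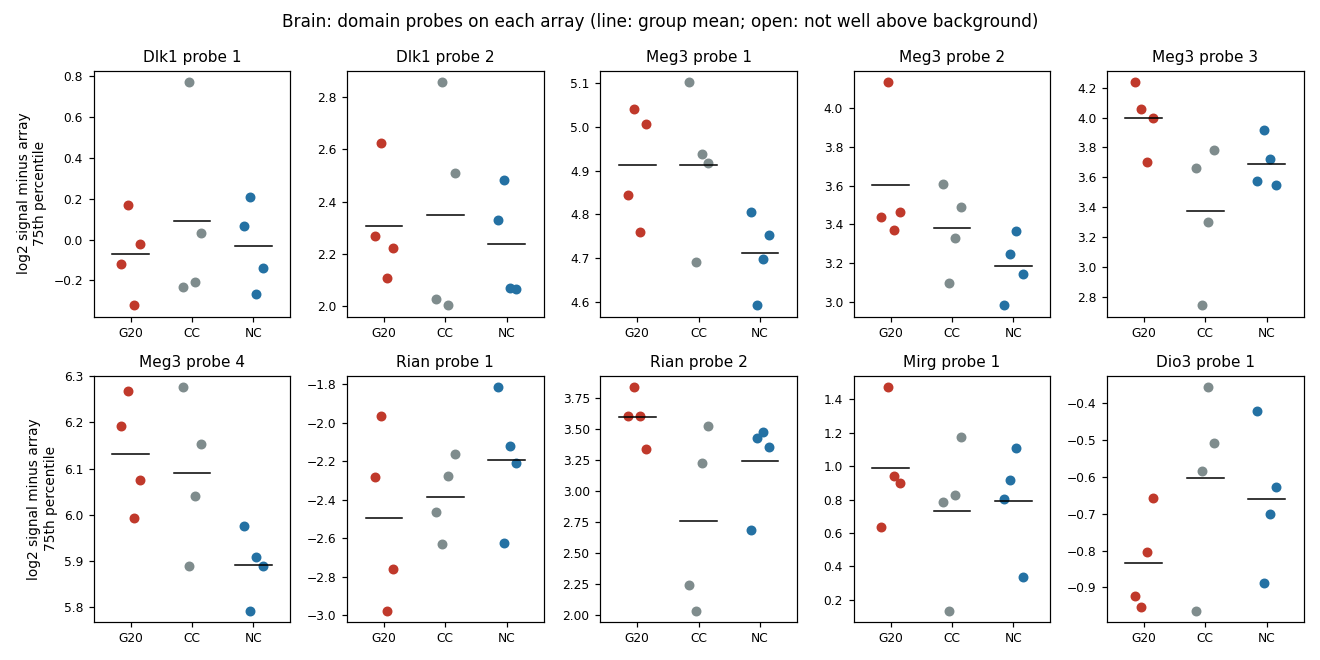
Levels of the 10 domain probes in brain, in log2 signal minus the array's 75th percentile, with a point per array and a line at each group mean. Groups overlap for most probes. Meg3 probes 2 and 4 have all 4 G20 brains above all 4 NC brains, and the 4 CC brains spread more widely for Rian probe 2, from 2.03 to 3.52.

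The difference between the tissues was tested itself, as the G20 minus NC difference in brain minus that in liver. It was below 0 for all 10 probes, with a median of -0.79. By limma 0 were called (background 3.31% of 21860 probes, 1.58% lower). At an unadjusted p under 0.05 there were 6 of the 10, and the share of all probes at that threshold is not given here. Rian probe 1, which is among the 6, was the lowest of the 10 at -1.42 ± 0.60. It entered the liver tests only through G20, the group where it was highest, so its value is no support. Meg3 probe 4 had -0.80 ± 0.24 (limma adjusted p = 0.0759) and Dlk1 probe 2 had -1.03 ± 0.34 (limma adjusted p = 0.102). With the animal number as a random block (consensus correlation 0.15), 3 probes were called, Meg3 probes 1, 3 and 4, with limma adjusted p of 0.0401, 0.0472 and 0.0419. The source names tie brain and liver of an animal together in CC and NC, and in G20 the number in the title alone does. Without NC liver replicate 4 the count was 4, without G20 liver replicate 1 or CC liver replicate 1 it was 1, and with the deposited processed values (set out with the CC clones) it was 2, against a background of 3.52%. Larger G20 differences in liver than in brain were therefore called only in some of these fits. For the block and leave-out fits the share of all probes called is not given here.

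**Figure D3:**
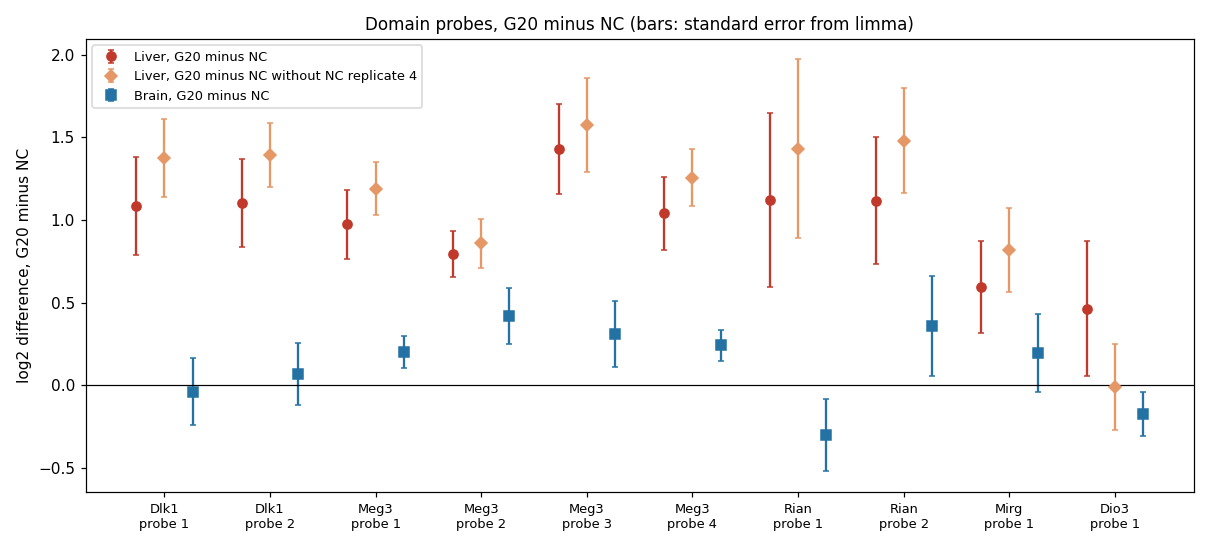
Difference G20 minus NC on the log2 scale for each domain probe (bars, standard error from limma) in liver, in liver without NC replicate 4, and in brain. Liver differences run from 0.46 to 1.43, brain differences from -0.30 to 0.42, and the Dio3 difference in liver is near 0 without NC replicate 4.

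The CC clones were compared with both other groups, and here the values used decide the answer. G20 minus NC and CC minus NC share the NC arrays, and G20 minus CC shares arrays with both. From the scanner values, Dlk1 probe 2 was at 5.10, 6.03, 5.28 and 5.47 in CC livers, within the range of the NC livers. Meg3 probe 4 was at 6.15, 6.05, 5.48 and 5.47 in CC livers, below the 4 G20 livers and overlapping the NC livers. Only Meg3 probe 2 was called between CC and NC livers, at 0.54 ± 0.14 (limma adjusted p = 0.00956, n = 4 each), against a background of 39.7% in either direction and 19.6% higher. Its CC levels were -0.30, -0.54, -0.90 and -0.70. Brain markers summed to 0.59 to 1.895 in CC livers and 0.35 to 0.44 in NC livers, without overlap. Tubb3 (-0.92 in CC, -2.53 in NC livers) and Map2 (-2.60 and -3.66) were higher in CC livers. Gfap went the other way (-4.23 and -3.93), and Neurod1 and Olig2 were well above background on 0 CC livers. Of the 6 markers, 2 to 3 were well above background in CC livers and 3 to 4 in NC livers. The part of brain cells in this call was not tested. Without NC replicate 4 the count was 3, all higher in CC, and the share of all probes called in that fit is not given here.

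Between G20 and CC livers 7 of the 10 domain probes were called, all higher in G20, against a background of 43.7% in either direction and 23.6% higher. The differences were 1.12 ± 0.27 for Dlk1 probe 2 (limma adjusted p = 0.00565), 1.16 ± 0.30 for Dlk1 probe 1 (0.00787), 0.88 ± 0.22 for Meg3 probe 4 (0.00654) and 0.71 ± 0.21 for Meg3 probe 1 (0.017). Meg3 probe 3 (0.78 ± 0.27, limma adjusted p = 0.0362), Rian probe 1 (1.48 ± 0.53, 0.0393) and Rian probe 2 (1.04 ± 0.38, 0.0455) were closer to the threshold, and their groups overlapped. Rian probe 1 was well above background on 4 of 4 G20 livers, 2 of 4 CC livers and 2 of 4 NC livers. It entered the liver tests only through G20, the group where it was highest, so its call is no support. The count fell to 3 without CC replicate 4, and to 4 without CC replicate 3 or without G20 replicate 2, 3 or 4. For these leave-out fits the share of all probes called is not given here. Under normexp the count was 3, where 1350 of all probes were called higher and 1486 lower, and Rian probe 1 turned to -0.53. Since CC arrays were scanned in a session of their own, every CC comparison carries the session too, and the effects cannot be told apart. Marker sums differed too. Stellate cell and fibroblast markers summed to 38.6 to 45.2 in G20 livers and 54.8 to 76.7 in CC livers, and endothelial markers to 6.91 to 8.45 in G20 and 9.001 to 10.6 in CC livers, both without overlap. The 3 complete liver markers summed to 508 to 550.8 in CC livers and the 2 erythroid ones to 106.7 to 132.9. Macrophage markers summed to 33.1 to 40.5 there, and each of these overlapped the G20 range. Skeletal muscle markers summed to 106.7 and 22.3 in CC replicates 1 and 2, and to 1.80 and 1.51 in replicates 3 and 4. CC replicates 1 and 2 also had the higher CC levels of Meg3 probe 4 and Rian probe 1. For Dlk1 they parted. CC replicate 1 had the lowest CC level of both probes (2.96 for probe 1, 5.10 for probe 2) and CC replicate 2 the highest (3.99 and 6.03). Brain markers summed to 0.59 to 1.895 in CC livers and 0.29 to 0.40 in G20 livers, without overlap. Tubb3 (-0.92 in CC, -2.64 in G20 livers) and Map2 (-2.60 and -3.68) were higher in CC livers, and Gfap was level (-4.23 and -4.22). Of the 6 brain markers, 2 to 3 were well above background in CC livers and 2 to 4 in G20 livers. Alb had a value on only 1 of the 4 CC liver arrays, since outlier spots were dropped. The part of these cells in the differences between G20 and CC livers was not tested.

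The series also has a deposited table of processed values for the same arrays, and it gave another picture of the CC livers. Its G20 and NC columns followed the scanner values (r of at least 0.9999 per array), whereas its CC columns carried an added offset that differed between probes and was common to the 4 CC arrays of each tissue (SD over probes 0.61 in liver and 0.62 in brain). In liver that offset correlated at 0.988 across 20855 probes with the G20 minus CC difference of the scanner values, and at 0.788 with the NC minus CC difference (both across probes, which are not independent). In brain the values were 0.95 with G20 minus CC and 0.962 with NC minus CC. The offset and these differences all subtract the scanner level of CC, which raises such correlations by itself, so they are a description only. How the offset arose is not given in the labels or headers. By those deposited values, 6 of the 9 domain probes fitted in liver were called higher in CC than in NC, against a background of 7.77% of 20607 probes in either direction and 3.88% higher. Between G20 and CC livers 0 of those 20607 probes were called there (0%).

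With the deposited values the CC minus NC difference in liver was 1.13 ± 0.25 for Dlk1 probe 2 (limma adjusted p = 0.0202), 1.03 ± 0.21 for Meg3 probe 4 (0.0153) and 1.59 ± 0.27 for Meg3 probe 3 (0.00664), where the scanner values gave -0.02, 0.15 and 0.65. The G20 minus NC differences were nearly the same from both sources, at 1.13 and 1.10 for Dlk1 probe 2 and 1.07 and 1.04 for Meg3 probe 4. Between CC and NC livers, Meg3 probe 2 was called higher in CC from both sources (0.86 with the deposited values), while the calls of Dlk1 and of Meg3 probes 1, 3 and 4 rest on which values are used. All 7 calls between G20 and CC livers were made from the scanner values and none from the deposited ones.

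**Figure D4:**
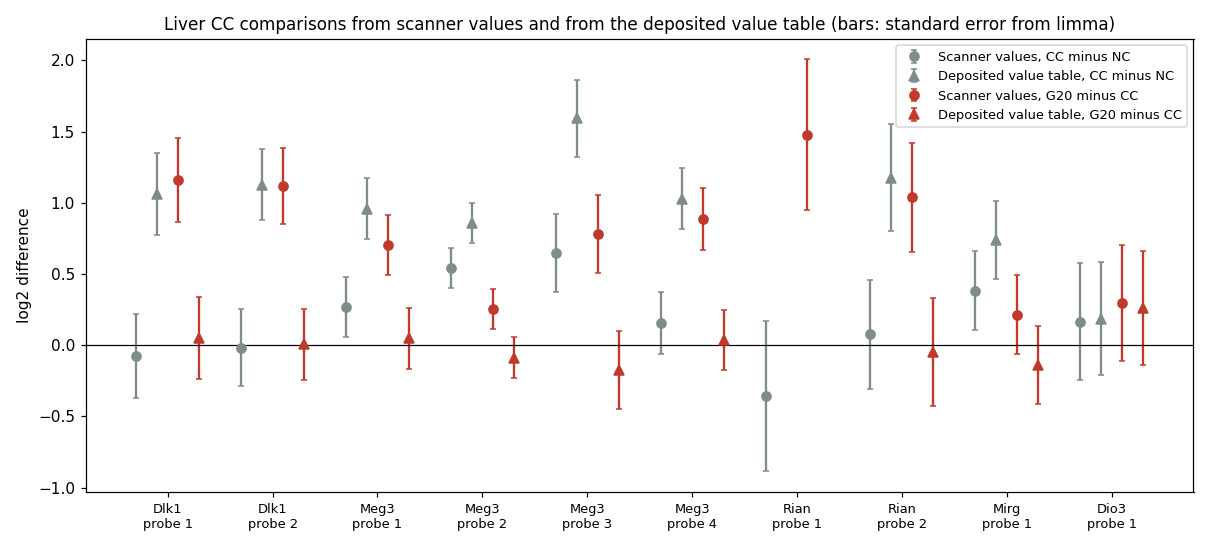
Liver differences CC minus NC and G20 minus CC on the log2 scale for each domain probe (bars, standard error from limma), from the scanner values (circles) and from the deposited table of processed values (triangles; Rian probe 1 lacks values there). For Dlk1 the 2 sources exchange places: the G20 minus CC difference of 1.12 in the scanner values for Dlk1 probe 2 is 0.00 in the table, and the CC minus NC difference of -0.02 is 1.13.

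In brain few domain probes were called in the CC comparisons. Between CC and NC brains 0 of 10 domain probes were called by limma, where 68.4% of all probes were called. At an unadjusted p under 0.05 there were 0 as well, and the share of all probes at that threshold is not given here. The count of called probes was 2 with scaling by the median, 4 lower with quantile normalization, 2 without CC replicate 2 and 1 without CC replicate 4. For the leave-out fits the share of all probes called is not given here. Over all probes, scaling by the median called 11857 higher and 7219 lower in CC brains, and quantile normalization 9100 higher and 9428 lower. Between G20 and CC brains 2 were called, both higher in G20, against a background of 66.7% in either direction and 32.8% higher. Meg3 probe 3 was at 4.24, 4.06, 3.70 and 4.00 in G20 brains, against 3.66, 2.74, 3.30 and 3.78 in CC brains, a difference of 0.63 ± 0.20 (limma adjusted p = 0.0146, n = 4 each).

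Rian probe 2 was at 3.60, 3.84, 3.60 and 3.33 in G20 brains, against 2.23, 2.03, 3.22 and 3.52 in CC brains, with CC replicates 1 and 2 low. Its difference was 0.84 ± 0.30 (limma adjusted p = 0.0271, n = 4 each). The count was 1 without CC replicate 2 or without G20 replicate 1, 2 or 3, and in the deposited table it was 0, where 1.16% of all probes were called. For the leave-out fits that share is not given here. CC brain replicate 2, which had the lowest CC level of both probes, also had pituitary markers summing to 19.2, against 0.81 to 1.00 in the other CC brains and 0.59 to 0.70 in the G20 brains. Macrophage markers (1.67 to 1.96 in G20, 2.78 to 3.14 in CC brains) and skeletal muscle markers (0.51 to 0.63 in G20, 0.74 to 0.94 in CC brains) did not overlap either. Their part in these differences was not tested. For Meg3 probe 3 the CC minus NC difference was lower in brain than in liver by -0.97 ± 0.35 (limma adjusted p = 0.0253), the only domain probe called for that difference, against a background of 53.2% in either direction and 23.6% lower. It was not called without CC brain replicate 2, NC brain replicate 2, CC liver replicate 1 or NC liver replicate 3, and the deposited table gave 4 called, against a background of 5.35%.

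For Dlk1 and for 2 of the Meg3 probes, differences between the tissues exceeded those between the groups. Brain against liver, 8 of 10 domain probes were called in G20, 8 in CC and 9 in NC. The background over 30024 probes was 87.9% in G20 (44.7% higher, 43.2% lower), 82.8% in CC (40.2% higher, 42.7% lower) and 87.6% in NC (44.9% higher, 42.7% lower), and 5 domain probes were higher and 3 lower in G20, 6 and 2 in CC, and 7 and 2 in NC. Brain and liver of G20 and of NC were scanned in different sessions, those of CC in the same one. Dlk1 was lower in brain in all 3 groups, by -4.28 ± 0.25 for probe 2 in G20, -3.12 ± 0.25 in CC and -3.25 ± 0.25 in NC (SE, n = 4 per tissue). For every group all brains lay below all livers. Dio3 was higher in brain, by 1.31 ± 0.32 in G20, 1.84 ± 0.32 in CC and 1.94 ± 0.32 in NC. Rian probe 2 was higher in brain by 1.03 ± 0.37 in G20, 1.22 ± 0.37 in CC and 1.78 ± 0.37 in NC, and all these were called by limma. Mirg was called higher in brain in G20 and NC animals and, in CC animals, was at 0.58 ± 0.27 with limma adjusted p = 0.0555, or 0.0474 with the animal as a block, and at 1.34 with the deposited values, where it was called.

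The 4 Meg3 probes fell into pairs. Probes 2 and 3 were far higher in brain than in liver, by 3.96 and 3.89 in G20, 3.99 and 4.05 in CC and 4.33 and 5.01 in NC, which is 14.9-fold to 32.3-fold. Probes 1 and 4 differed little between the tissues, by -0.23 and -0.54 in G20, 0.48 and 0.30 in CC and 0.54 and 0.25 in NC, and these values turned sign with the scaling. Quantile normalization gave 1.07 and 1.32 in G20, and scaling by the median gave -0.04 in CC and -0.16 in NC for probe 4. The mean of probes 2 and 3 minus the mean of probes 1 and 4 on the same array was higher in brain than in liver by 4.31 in G20, 3.63 in CC and 4.28 in NC. The pairs were formed after these differences were seen, so this is a description with no test. Probes 2 and 3 lie between probes 1 and 4 on the chromosome.

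A further probe between Meg3 probes 3 and 4, named AI850416 in the files and listed there with a RIKEN clone whose name is a RefSeq synonym of Meg3, was not taken by the rule. It was higher in brain than in liver by 3.91 ± 0.23 in G20, 4.99 ± 0.23 in CC and 4.81 ± 0.23 in NC, on the side of probes 2 and 3. In liver it averaged 1.70 ± 0.29 in G20 and 0.57 ± 0.44 in NC animals (SD, n = 4 each), a difference of 1.13 ± 0.28 (limma adjusted p = 0.0372).

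**Figure D5:**
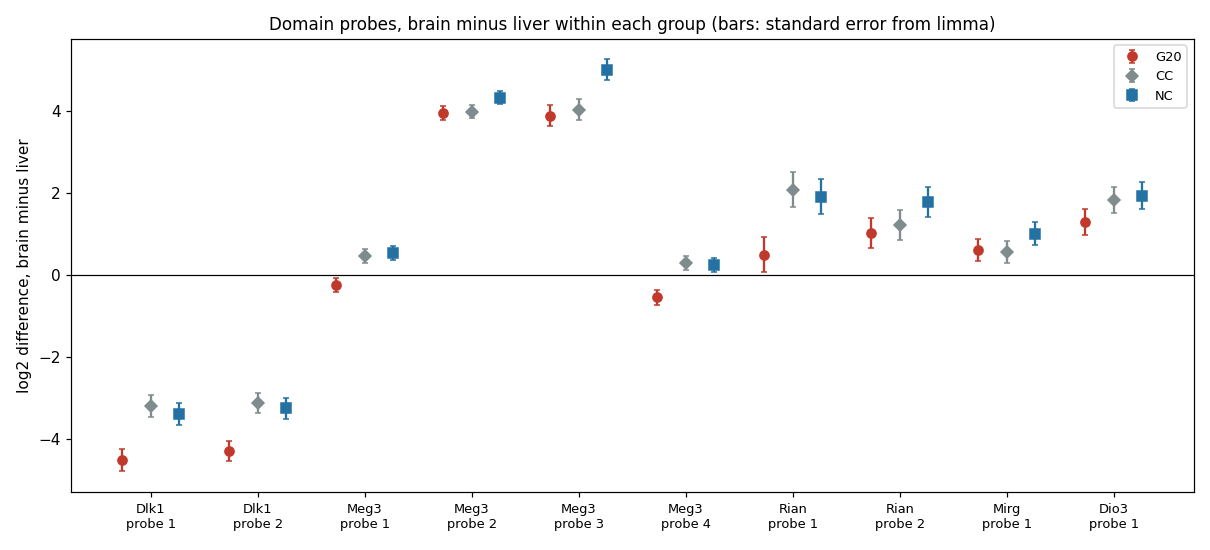
Difference brain minus liver on the log2 scale for each domain probe within G20, CC and NC animals (bars, standard error from limma). Dlk1 probes lie between -3.12 and -4.52, Meg3 probes 2 and 3 between 3.89 and 5.01, and Meg3 probes 1 and 4 between -0.54 and 0.54.

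The array held 7 other probes between the outermost domain probes, AI850416 included. The probe for Dio3as, now named Dio3os, the transcript antisense to Dio3, was not well above background on any brain array. In liver it was well above background on 4 of 4 G20, 4 of 4 CC and 3 of 4 NC arrays, with NC replicate 4 the exception, and G20 minus NC was 0.43 ± 0.39 (limma adjusted p = 0.548, n = 4 each). AK086774 was above background on all brain arrays, and on 3 G20, 0 CC and 0 NC livers. NAP070880-1 differed by -0.05 ± 0.26 between G20 and NC livers (limma adjusted p = 0.93). The other 3 (AK049674, B830012L14Rik and 4930511J24Rik) were well above background on at most 1 array of any group.

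Neighbouring genes outside the domain were looked at in the same comparison of G20 with NC livers, where 6.47% of all 24079 probes were called. Upstream of Dlk1, 0 of 4 measured genes were called (7 were named). Downstream of Dio3, 0 of 13 were higher and 1 was lower, Zfp839 at -0.74 ± 0.15 (limma adjusted p = 0.0152, n = 4 each). Among genes known to guard imprints or to act on the domain's control region, such as Trim28, 0 of 14 measured were called, with a median of 0.06. Zfp57, named in that list, did not pass the filter on dim probes in liver and was not tested there. In brain 0 of these 3 lists' genes were called between G20 and NC.

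A list of other imprinted genes tied to growth held 16 measured genes in liver, of which 2 were higher in G20 than in NC and 0 lower, with a median of 0.09. Over all probes 6.47% were called in that comparison and 3.86% were higher, and 1.39% were called in brain. A single call in a list of this size is close to the liver background. Plagl1, a zinc finger transcription factor, was higher by 1.06 ± 0.15 (limma adjusted p = 0.00264), and Cdkn1c, an inhibitor of the cell cycle, by 1.31 ± 0.35 (limma adjusted p = 0.0462, n = 4 each). Igf2, the fetal growth factor, was at 0.04 ± 0.10, and H19, the noncoding RNA beside it, at -0.19 ± 0.10. In brain Plagl1 was the 1 of 18 called, at 0.98 ± 0.09 (limma adjusted p = 0.000107). Among 12 genes of hepatoblasts and fetal liver, 1 was called lower in G20 livers, the epithelial surface protein Epcam at -1.31 ± 0.22 (limma adjusted p = 0.00704), and Afp was at 0.10 ± 0.09.

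Dlk1 is related to the Notch ligands, and a list of 15 Notch and Dlk1-related genes, with Pparg, Sox9 and Dlk2 among them, was looked at. In G20 livers 2 of them were lower than in NC livers, the receptor Notch3 at -0.58 ± 0.11 (limma adjusted p = 0.00982) and the target Heyl at -0.85 ± 0.17 (limma adjusted p = 0.015, n = 4 each). Notch3 is also known from the cells of vessel walls. For Dio3, the list of thyroid hormone handling and response had 12 measured genes in liver, of which 1 was higher and 3 lower, with a median of 0.04. The background for this list and the Notch list was 6.47% of all probes in either direction. Serpina7, the thyroxine-binding globulin, was higher by 2.69 ± 0.36 (limma adjusted p = 0.00201). Thrsp, a gene of fat synthesis that thyroid hormone induces, was lower by -5.04 ± 0.74 (limma adjusted p = 0.00336), and the malic enzyme Me1 by -1.48 ± 0.27 (limma adjusted p = 0.01). Ttr, a carrier of thyroxine, was lower by -0.64 ± 0.17 (limma adjusted p = 0.0461). In brain 0 of 12 genes of this list and 0 of 14 of the Notch list were called.

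Within the domain, the liver probes of Dlk1 and Meg3 went together across the 12 liver arrays, described here by Pearson's r, to which the group differences contribute. The likest of 23919 probes to Dlk1 probe 2 was Dlk1 probe 1 (r = 0.98), and the likest to Meg3 probe 4 was Meg3 probe 1 (r = 0.99). Dlk1 probe 2 stood at place 30 for Meg3 probe 4 (r = 0.90). After the group means were taken out, r was 0.70 and the place 785. Dio3 went the other way after the group means were taken out, at -0.72 with Dlk1 probe 2 and -0.63 with Meg3 probe 4, where NC replicate 4 carries the lowest Dio3 level and high Dlk1 and Meg3 levels.

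In brain, Dlk1 probe 2 and Dlk1 probe 1 were again each other's likest (r = 0.92), whereas Dlk1 probe 2 and Meg3 probe 4 had r = -0.07. The genes likest to Dlk1 in liver were Mta3 (r = 0.97), Ranbp3l, Bmp7, Cited1 and Ahnak (r = 0.95 each). Those likest to Meg3 in liver were Pdia6, Kctd3 (r = 0.95 each), Hook1 (0.94), Selenos and Adam11 (0.93 each). In brain they were Zbtb8os (r = 0.88), H13, Glrx3, C230086J09Rik and Slbp for Meg3, and Spa17 (r = 0.82), Stk35, Limd1, Pitx1 and Letm2 for Dlk1. These 12 arrays of a tissue share 3 slides and, for CC, a separate scan session.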

How the data were processed

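Scanner output of 24 single-colour arrays was used, 12 per tissue. Per the file headers, the deposited intensity values are processed signals of Agilent Feature Extraction 9.5.3.1 with positions on mm8; the labels give 0.5 ug of RNA per labelling. Spots marked as outliers were dropped, spots of a probe averaged, and log2 intensity was centred on each array's 75th percentile. The authors' deposited processed intensity values served as an alternative; no source used here says how it was scaled. All its columns were used.

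Probes entered a tissue's tests where some group of that tissue had them well above background on its 4 arrays. limma 3.58.1 (R 4.3.3, with the data.table package, version 1.17.8) fitted group means per tissue, or over all 24 arrays for tissue contrasts. On simulated liver data of 23920 probes, 74% of changes of 1 and 98% of changes of 2 on the log2 scale were recovered. The number of arrays limits the precision.

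Symbols came from RefSeq for 23374 probes and from the files for 17800. Each domain probe was described, and from each list at most 4 called genes by size. The members and lists were chosen with earlier results of these data known. Array numbers were checked for pairing: within a tissue same-numbered arrays did not deviate together (correlations of -0.18 to 0.13). Between brain and liver of the same number the correlations were 0.04 to 0.19 in G20, 0.17 to 0.23 in CC and 0.04 to 0.30 in NC. With different numbers they were -0.30 to 0.24 in G20, -0.21 to 0.13 in CC and -0.18 to 0.16 in NC. The best match was the own number for 2 in G20, 4 in CC and 2 in NC, so the pairing of G20 tissues by number is not settled.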

Additional observations from a re-analysis of the deposited data

Results flagged for a closer look

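In 4 of 60 groups of 4 arrays, 1 array lay far from the others for a domain probe, about as often as chance gives (1 in 20). Meg3 probe 2 was at 4.14 in G20 brain replicate 2, with the others between 3.37 and 3.46. That array also had the lowest liver marker sum of the G20 brains, 0.34, with the others between 1.25 and 1.91. Its stellate cell and fibroblast sum was the lowest too, 10.7, with the others between 17.2 and 21.3. A link to the Meg3 level was not tested. Meg3 probe 2 was at -0.05 in G20 liver replicate 1, with the others between -0.48 and -0.41. Meg3 probe 3 was at 0.04 in CC liver replicate 1, with the others between -0.95 and -0.88. That array also had the highest skeletal muscle marker sum of the CC livers, 106.7. Rian probe 2 was at 2.69 in NC brain replicate 1, with the others between 3.36 and 3.48.

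The CC minus NC difference of Meg3 probe 3 was lower in brain than in liver by -0.97 on the log2 scale, past the threshold of the test of that difference.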

How the results depend on the processing

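The 7 domain probes called between G20 and CC livers and the 5 called between G20 and NC livers kept their direction under the alternatives, apart from Meg3 probe 3 (-0.18) and Rian probe 2 (-0.048) with the deposited table and Rian probe 1 (-0.53) with normexp, all for G20 against CC in liver. The cause was not tested. Counts of domain probes called are given next, without the share of all probes called in each fit, so they describe only how the count moved. With 1 probe per gene, which leaves 5 domain probes, there were 2 in liver G20 against NC, 0 in CC against NC and 3 in G20 against CC, 1 in brain G20 against CC, 5, 3 and 4 for brain against liver in G20, CC and NC, and 0 for the tissue difference of CC against NC. Quantile normalization gave 4 in brain CC against NC, 5 in G20 against CC and 4 for the tissue difference of CC against NC. Scaling by the median gave 2 in brain and 2 in liver for CC against NC. Normexp gave 0 in brain G20 against CC, 0 in liver CC against NC, 3 in liver G20 against CC and 0 for the tissue difference of CC against NC. The deposited table gave 0 in brain G20 against CC, 6 in liver CC against NC, 0 in liver G20 against CC, and 2 (G20) and 4 (CC) for the tissue differences from NC.

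The animal number as a replicate block gave 3 for the tissue difference of G20 against NC, and changed no other count beyond 1.5 times; within a tissue the numbers share only a number. Leaving out 1 array at a time gave 2 to 7 for liver G20 against NC, 1 to 3 for CC against NC, 3 to 7 for G20 against CC, 0 to 2 for brain CC against NC, 1 to 2 for G20 against CC, 0 for G20 against NC, 6 to 8, 7 to 10 and 9 to 10 for brain against liver in G20, CC and NC, and 0 to 4 and 0 to 1 for the tissue differences of G20 and CC against NC. Keeping outlier spots, added after the data were seen, moved no count beyond 1.5 times. Over all probes, normexp called 0 between G20 and NC brains, against 386. Limits: 4 arrays per group, slide confounded with group, a separate CC scan session, no array probe for Rtl1 found, and Rian probe 1 near background in liver.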
